A study of Homo sapiens with 18 samples.

Results

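The clustered replication-dependent histone genes encode the core histones H2A, H2B, H3 and H4 and the linker histone H1. They were taken as every gene symbol that begins with H2AC, H2BC, H3C or H4C and ends in its gene number, together with H1-1 to H1-6. The rule found 69 genes among 40916 symbols. They were 6 genes of the H1 family, 17 of H2A, 18 of H2B, 13 of H3 and 15 of H4. The rule used gene symbols only, although it was set with earlier results of these data known.

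Polyadenylated RNA of cultured human cells was sequenced in 18 libraries, which fell into 6 groups of 3 biological replicates. MCF10A, a non-transformed mammary epithelial line, carried an H2B-GFP reporter and grew in F12:DMEM with horse serum, EGF, hydrocortisone, cholera toxin and insulin. HCT116, a colorectal carcinoma line, was unlabelled and grew in McCoy's 5A medium with fetal bovine serum. The third kind of culture mixed both lines 1:1, in a medium that the labels do not name, and all media held penicillin-streptomycin. Each culture was left non-irradiated (NIR) or received 10 Gy (IR). The sample titles give day 2 and the series description gives 72 h for the harvest. Neither states which H2B gene the reporter carries, which promoter drives it, or whether the lines are single clones.

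Replication-dependent histone genes are transcribed mainly in S phase, when new DNA must be packed into nucleosomes. Their main RNA has no poly(A) tail. It ends just after a stem-loop that is bound by the stem-loop binding protein SLBP and cut by a complex that contains the U7 small nuclear RNA. Some of these genes also yield polyadenylated RNA, from poly(A) sites further downstream or from spliced forms. A poly(A)-selected library samples that second form, so the values below are levels of polyadenylated histone RNA and not of all histone RNA.

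The stem-loop is shown because it is the end of the main histone RNA, which lacks the tail on which these libraries were selected. It was searched in the GENCODE 29 transcript models on GRCh38 as a stem of 6 bases, a loop of 4 and the matching stem. The stem had to begin with GG and the loop with TT, so these letters of the forms below were set by the search. Models were found for 65 of the 69 genes, and 27 genes had the 16-base element in a model. Each form is printed as DNA with the stem in capitals. The form of 15 genes of the H2A, H2B and H3 families was followed by that of H2BC4, H2BC5, H2BC7 and H3C8, and the last 2 belonged to 5 and 3 genes of the H4 family.
H2A, H2B and H3 form: GGCTCTtttcAGAGCC
H2BC4, H2BC5, H2BC7 and H3C8 form: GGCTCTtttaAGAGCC
H4 form with a final C in the loop: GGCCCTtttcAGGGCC
H4 form with a loop of T only: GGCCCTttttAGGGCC

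The models differed between members that gave counts and members that gave few. Of the 16 members with a mean of at least 1 CPM (counts times 1e+06 over the total of the library) in any group, 13 had a model that was spliced or ran on for at least 100 bases past the stem-loop. Of the 49 other members with a model, 12 had such a model. The longest model had a median of 1452.5 bases in the former and 411 bases in the latter. An unspliced model in which no stem-loop was found was not counted as long, such as the 2250-base model of H2AC11. Most genes without the element had a longest model shorter than the RefSeq span of the gene, such as 381 against 482 bases for H2BC10 and 312 against 403 for H4C4. A model that stops before the stem-loop cannot show it. The counts of genes with the element and the difference in length therefore depend on how complete the models are. Models of H2AC6, H2BC21 and H2BC26 ran 1128, 1729 and 1917 bases past the stem-loop, and those of H4C8 and H4C16 ran 1655 and 1510 bases past it. H2BC12 and H1-2 were measured at more than 5 CPM without any long or spliced model in this annotation. RefSeq, however, gives the H2BC12 gene a span of 8566 bases, where its GENCODE model has 381. These are properties of annotations, which may not be those used for counting, and no test was made on them.

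RefSeq places 55 of the genes on chromosome 6, 13 on chromosome 1 and 1, H4C16, on chromosome 12 (GRCh38.p14). Promoters, from 250 bases before to 50 bases after the gene start, were matched for 64 members. They were searched on both strands for TATAAA, for CCAAT and for the octamer ATTTGCAT, a site of the POU-domain factor POU2F1. TATAAA was in 42 of 64 member promoters (65.6%) and in 12.0% of all 27305 promoters of the table. CCAAT was in every promoter matched for H1, H2A, H2B and H3 and in 3 of 13 H4 promoters, against 35.7% of all promoters. The octamer was in 14 of 18 H2B promoters (77.8%) and 11 of 16 H2A promoters (68.8%), in 1 of 11 H3 promoters and in none of 6 H1 or 13 H4 promoters, against 1.8% of all promoters. In 11 pairs an H2A and an H2B gene start 192 to 246 bases apart on opposite strands, so their windows share most bases. The octamer was found for both genes of such a pair or for neither. The H2A and H2B counts are therefore not independent. The table gives H3C4 the same window as H2AC7. A match describes letters in a window and not a bound site.

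The 250 bases before the start are shown for 4 genes on which the results turn. Of the members that reached 5 CPM, H2BC11 and H2BC12 differed most between the non-irradiated lines. Their promoters were 74.4% identical, against a median of 53.2% over the 153 pairs of H2B promoters. In MCF10A any reporter RNA counted under H2BC11 cannot be told apart from RNA of the chromosomal gene, whose promoter is printed. H2BC21 shares its upstream region with H2AC20, which responded in the other direction. H1-2 stands for a family whose promoters lacked the octamer. All run 5′ to 3′ on the gene's strand, which is the minus strand for each, with the 3 motifs in capitals on either strand. CCAAT on the other strand reads ATTGG and TATAAA reads TTTATA, and these last can overlap.
H2BC11, chr6:27132796-27133045: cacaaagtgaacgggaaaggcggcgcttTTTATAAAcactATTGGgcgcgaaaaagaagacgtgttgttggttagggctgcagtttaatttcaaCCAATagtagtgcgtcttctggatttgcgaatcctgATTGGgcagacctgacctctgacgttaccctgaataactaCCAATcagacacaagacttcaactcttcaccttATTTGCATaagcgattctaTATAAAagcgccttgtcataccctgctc
H2BC12, chr6:27146859-27147108: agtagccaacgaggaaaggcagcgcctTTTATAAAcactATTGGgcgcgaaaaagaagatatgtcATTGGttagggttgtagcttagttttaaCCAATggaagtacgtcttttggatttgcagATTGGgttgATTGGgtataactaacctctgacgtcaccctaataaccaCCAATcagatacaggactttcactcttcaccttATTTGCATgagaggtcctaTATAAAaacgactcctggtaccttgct
H2BC21, chr1:149886683-149886932: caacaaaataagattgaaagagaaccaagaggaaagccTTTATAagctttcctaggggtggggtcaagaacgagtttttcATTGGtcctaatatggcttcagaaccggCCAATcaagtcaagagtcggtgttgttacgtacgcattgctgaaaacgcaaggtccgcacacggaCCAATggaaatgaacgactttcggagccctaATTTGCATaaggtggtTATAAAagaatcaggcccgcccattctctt
H1-2, chr6:26056471-26056720: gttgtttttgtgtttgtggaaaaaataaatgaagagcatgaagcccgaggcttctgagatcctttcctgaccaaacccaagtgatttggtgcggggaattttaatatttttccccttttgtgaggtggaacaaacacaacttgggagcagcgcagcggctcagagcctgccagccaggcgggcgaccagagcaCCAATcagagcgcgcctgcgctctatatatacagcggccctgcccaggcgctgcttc

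The libraries held 25737818 to 40839835 counts. The labels of the lines were checked with 10 basal mammary genes, whose summed level was 9944 to 10920 CPM in MCF10A NIR and 234 to 325 CPM in HCT116 NIR, and with 10 intestinal genes, at 0.265 to 0.922 CPM and 733 to 1009 CPM. Mitochondrial genes took 5.10% to 5.32% of counts in MCF10A NIR and 6.06% to 6.35% in MCF10A IR. They took 8.42% to 8.75% in HCT116 NIR and 11.5% to 12.3% in HCT116 IR. CPM values were not corrected for that shift, and its part in them was not tested. For the fold changes, a fit without mitochondrial and the 10 most abundant genes was 1 of 8 alternative fits. Over these 8, the log2 fold change of IR against NIR in HCT116 was 2.711 to 2.733 for H2AC6 and 2.225 to 2.395 for H2BC11.

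Polyadenylated RNA was counted for few of these genes. A mean of at least 5 CPM in any group was reached by 8 members, and another 8 lay between 1 and 5 CPM in their highest group. The other 53 stayed below 1 CPM in every group, 5 of them with no count in any library. Values of 1 to 10 counts were often even (77.3% of 330 such member values, 68.3% over all genes). The counting options are not given in the sources used here, so counting error was not taken from the counts alone and a fit on halved counts was added.

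In MCF10A NIR the 69 genes together took 282.8, 287.3 and 305.2 CPM, and in HCT116 NIR 30.4, 38.2 and 34.1 CPM. Most of that gap was 1 gene, H2BC11. Without it the sum was 39.3 ± 3.06 CPM (SD, n = 3) in MCF10A NIR, 33.9 ± 3.96 CPM in HCT116 NIR and 32.6 ± 2.61 CPM in the mixed NIR cultures (SD, n = 3). In the irradiated groups the sum without H2BC11 was 108.5 ± 7.94, 132.6 ± 10.8 and 91.2 ± 8.43 CPM in the same order.

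**Figure D1:**
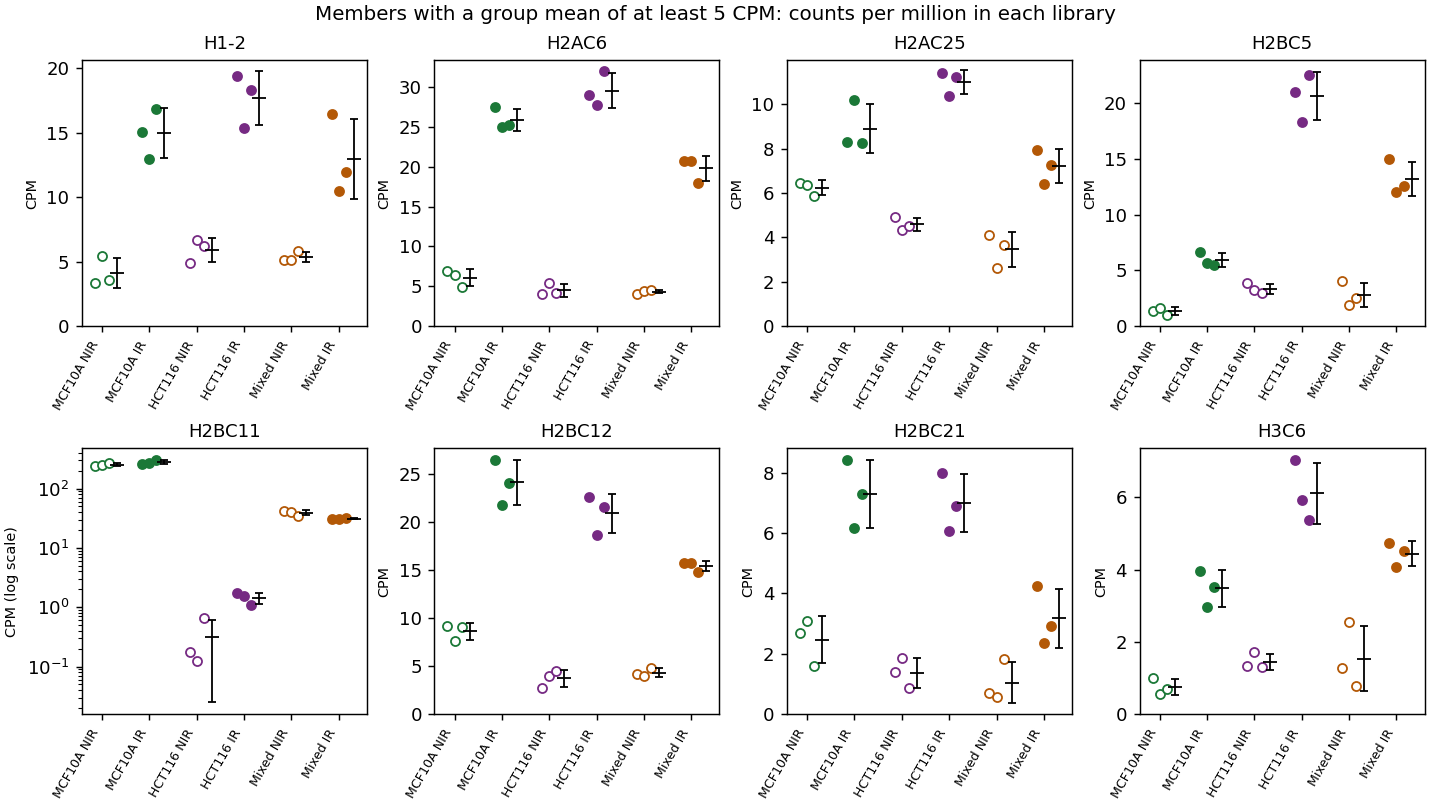
CPM (vertical axes, on a log scale for H2BC11) of the 8 members with a group mean of at least 5 CPM, in each of the 18 libraries by group (horizontal axes). Circles are libraries, open for NIR and filled for IR, and black bars are the mean ± SD of 3 libraries. In 7 of the 8 panels the IR libraries lie above the NIR libraries of the same culture, and H2BC11 overlaps in MCF10A and is lower in irradiated mixed cultures. H2BC5, H2BC21 and H3C6 reached 5 CPM in irradiated groups only, so the choice of panels favours IR. The share of all genes whose libraries separate in this way was not counted.

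Every family had a higher summed level in the irradiated groups of all 3 cultures. The H1 sum was 4.78 ± 0.983 CPM in MCF10A NIR and 15.3 ± 2.06 CPM in MCF10A IR. It was 6.71 ± 1.00 and 18.0 ± 2.25 CPM in HCT116, and 6.86 ± 0.539 and 13.3 ± 3.10 CPM in the mixed cultures. Most of the H1 sum was H1-2, with IR means of 14.94, 17.68 and 12.97 CPM in the same order. The mean of H1-4 was lower in IR than in NIR in each culture. The H2A sum was 14.7 ± 1.90 and 36.9 ± 0.772 CPM in MCF10A, 11.1 ± 1.15 and 42.7 ± 3.50 CPM in HCT116, and 9.78 ± 1.25 and 29.1 ± 1.83 CPM in the mixed cultures. H2B without H2BC11 was at 15.5 ± 0.548 and 45.0 ± 5.49 CPM in MCF10A, 12.5 ± 1.15 and 57.3 ± 6.02 CPM in HCT116, and 12.3 ± 2.03 and 38.9 ± 3.34 CPM in the mixed cultures. In none of these families did the NIR and IR libraries of a culture overlap.

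The H3 and H4 families took fewer counts. H3 genes together were at 2.26 ± 0.412 and 5.25 ± 0.916 CPM in MCF10A, 2.28 ± 0.489 and 10.7 ± 0.961 CPM in HCT116, and 2.46 ± 0.824 and 7.44 ± 0.380 CPM in the mixed cultures. H4 genes together were at 2.12 ± 0.299 and 6.04 ± 0.620 CPM in MCF10A, 1.33 ± 0.634 and 3.95 ± 1.07 CPM in HCT116, and 1.19 ± 0.249 and 2.49 ± 0.323 CPM in the mixed cultures. With H2BC11 left out of H2B, the ratio of the IR mean to the NIR mean lay between 2.33 for H3 and 3.20 for H1 in MCF10A, and between 1.94 for H1 and 3.15 for H2B in the mixed cultures. With H2BC11 counted, the H2B ratio was 1.20 in MCF10A and 1.35 in the mixed cultures. In HCT116 the ratio lay between 2.68 for H1 and 4.69 for H3, and that of H2B was 4.59 with or without H2BC11. These sums are descriptions with no test, and sums of different families are not corrected for the length of their RNA.

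**Figure D2:**
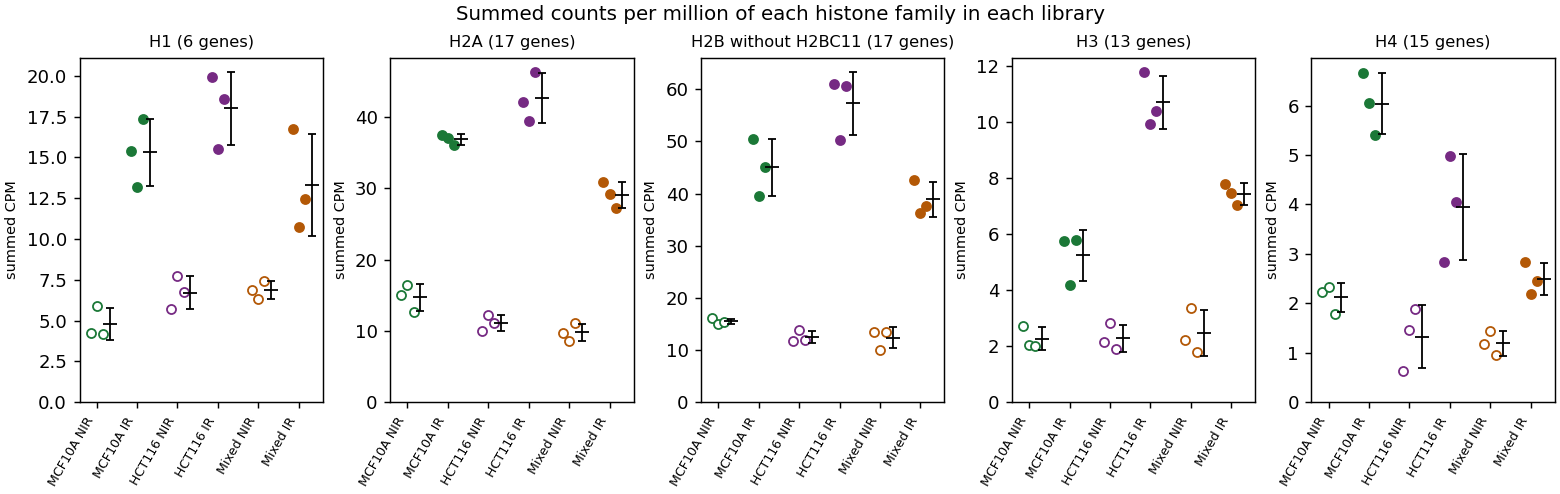
Summed CPM (vertical axes) of the H1, H2A, H2B without H2BC11, H3 and H4 genes in each library, by group (horizontal axes). Open circles are NIR and filled circles IR libraries, and black bars are the mean ± SD of 3 libraries. In each panel the IR libraries of a culture lie above its NIR libraries. For H3 the IR mean is 5.25 CPM in MCF10A and 10.7 CPM in HCT116. Most of each H1 mean is H1-2.

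Irradiation was tested gene by gene with edgeR's quasi-likelihood test, and a gene was called at a Benjamini-Hochberg adjusted p under 0.05 over all genes tested. In MCF10A 26 members passed the filter on low counts and 16 were called, 15 higher and 1 lower in IR. Among all 15154 genes tested, 55.4% were called, 26.2% higher and 29.2% lower. In HCT116 19 members passed and 16 were called, 14 higher and 2 lower, against 52.5% of 16857 genes (25.3% higher, 27.2% lower). In the mixed cultures 19 passed and 13 were called, 10 higher and 3 lower, against 49.4% of 16906 genes (24.0% higher, 25.4% lower). Irradiated bulk cultures can differ in the number of cells of a kind or in the RNA per cell, and these cannot be told apart here.

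The filter admits a gene that is high enough in 1 group only, so a member silent in NIR could pass only by being higher in IR. The calls were therefore also counted over the members with a mean of at least 1 CPM in NIR, a choice added after seeing the data. In MCF10A, 6 of these 7 members rose, none fell, and the other was H2BC11. In HCT116 all 8 such members rose. Of 10 such members in the mixed cultures 8 rose, and H1-4 and H2BC11 fell. The median log2 fold changes of these members were 1.52 in MCF10A, 2.21 in HCT116 and 1.41 in the mixed cultures. All genes tested, without that cut, had medians of 0.0035, 0.0072 and 0.012. How many of all genes above the same cut were called was not counted, so these member counts have no matched share beside them.

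**Figure D3:**
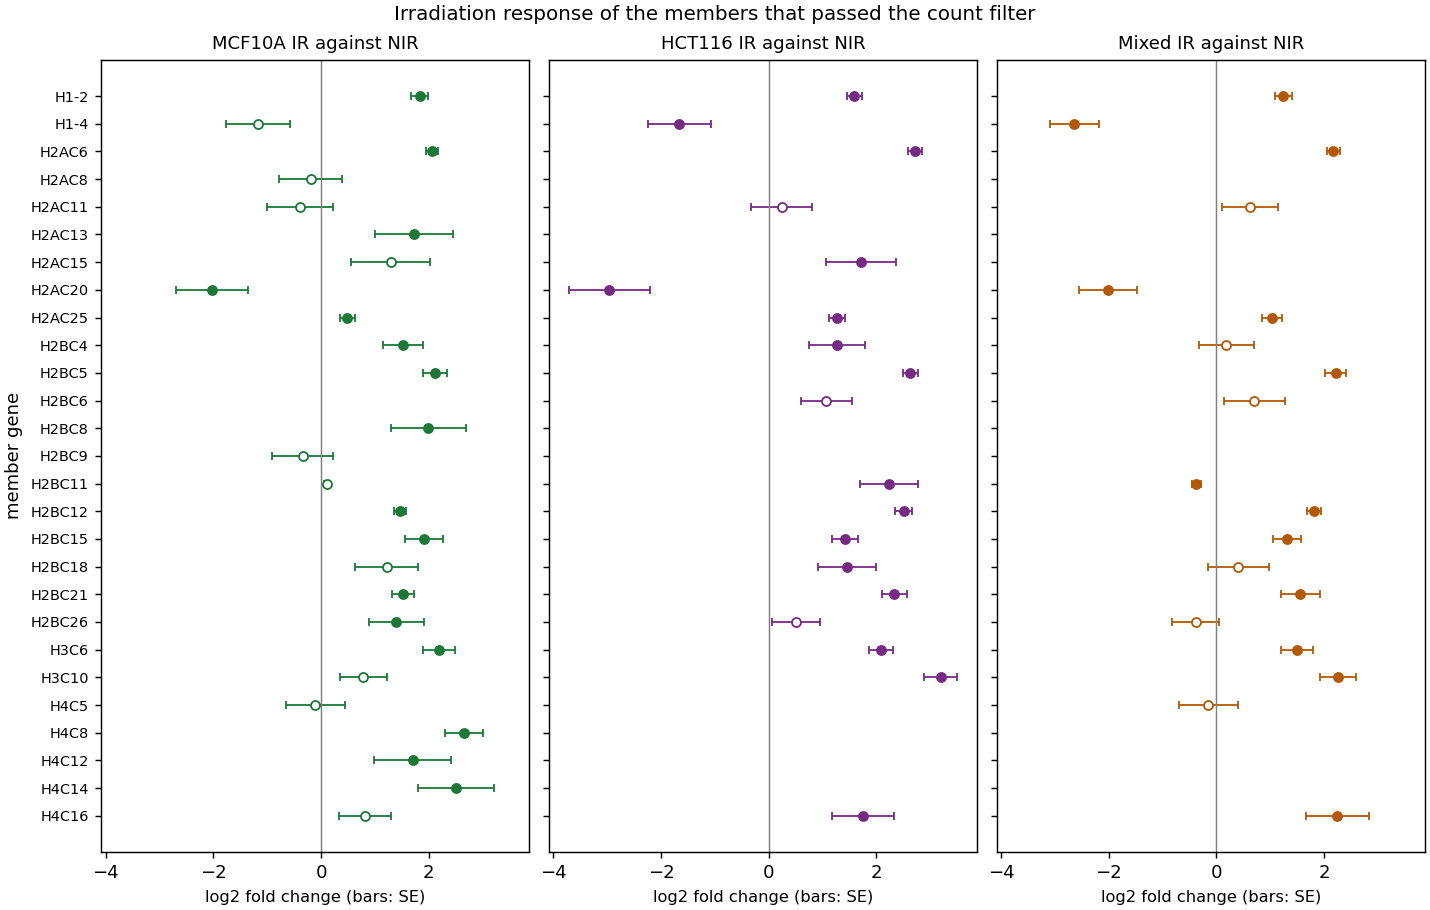
Log2 fold change of IR against NIR (horizontal axes, bars are standard errors) for each member that passed the count filter (vertical axis), in MCF10A, HCT116 and mixed cultures from left to right. Filled symbols mark an adjusted p under 0.05 in edgeR's test, and a gene without a symbol was not tested in that culture. Most filled symbols lie to the right of 0, and those to the left are H2AC20 in every panel, H1-4 in HCT116 and the mixed cultures, and H2BC11 in the mixed cultures.

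H1 genes encode the linker histone, which binds the DNA between nucleosomes. H1-2 stood at 3.35, 5.41 and 3.55 CPM in MCF10A NIR and at 15.1, 12.95 and 16.8 CPM in MCF10A IR. In HCT116, H1-2 was at 4.86, 6.65 and 6.23 CPM without irradiation and at 19.4, 15.3 and 18.3 CPM after it. In the mixed cultures, H1-2 was at 5.15, 5.13 and 5.84 CPM and at 16.5, 10.5 and 12.0 CPM. All IR libraries of a culture were above all its NIR libraries, and the NIR libraries of the lines overlapped. H1-2 rose with irradiation by a log2 fold change of 1.84 in MCF10A (SE 0.159, adjusted p = 8.4e-11), 1.59 in HCT116 (SE 0.141, adjusted p = 1.8e-09) and 1.24 in the mixed cultures (SE 0.160, adjusted p = 1.3e-06).

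H1-4, another linker histone gene, went the other way at a low level. H1-4 means were 0.569 ± 0.243 CPM in MCF10A NIR and 0.250 ± 0.137 CPM in MCF10A IR, which overlapped (a log2 change of -1.17, SE 0.594, adjusted p = 0.0982). In HCT116, H1-4 fell from 0.801 ± 0.277 to 0.246 ± 0.161 CPM (a log2 change of -1.66, SE 0.589, adjusted p = 0.021). In the mixed cultures, H1-4 fell from 1.49 ± 0.275 to 0.239 ± 0.0328 CPM (a log2 change of -2.64, SE 0.455, adjusted p = 5.4e-05). The HCT116 call was lost without HCT116 IR replicate 2 (-1.5) or 3 (-1.37) and without HCT116 NIR replicate 1 (-1.64) or 2 (-1.42), whereas the call in the mixed cultures held in every fit. H1-1, H1-3, H1-5 and H1-6 reached at most 0.113, 0.0735, 0.0683 and 0.166 CPM in any library and were not tested.

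H2A pairs with H2B in the nucleosome, and 11 pairs of an H2A and an H2B gene stand head to head on opposite strands. H2AC6 was at 6.94, 6.37 and 4.95 CPM in MCF10A NIR and at 27.5, 25.0 and 25.2 CPM in MCF10A IR. In HCT116, H2AC6 was at 3.99, 5.44 and 4.09 CPM and, after irradiation, at 28.97, 27.8 and 31.98 CPM. The mixed cultures had 4.08, 4.35 and 4.48 CPM of H2AC6 without irradiation and 20.8, 20.7 and 18.0 CPM after it. IR and NIR libraries were far apart in each culture. H2AC6 rose by log2 fold changes of 2.06 in MCF10A (SE 0.117, adjusted p = 1.1e-14), 2.72 in HCT116 (SE 0.127, adjusted p = 3.6e-14) and 2.17 in the mixed cultures (SE 0.124, adjusted p = 5.9e-12).

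H2AC25, an H2A gene on chromosome 1, had a smaller response in MCF10A. Its values were 6.47, 6.37 and 5.84 CPM in MCF10A NIR and 8.30, 10.2 and 8.23 CPM in MCF10A IR. In HCT116, H2AC25 was at 4.92, 4.32 and 4.53 CPM and then at 11.4, 10.4 and 11.2 CPM. Mixed cultures held 4.12, 2.60 and 3.67 CPM of H2AC25 and then 7.94, 6.42 and 7.26 CPM. The groups did not overlap in any culture. H2AC25 rose by 0.49 in MCF10A (SE 0.143, adjusted p = 0.00456), 1.27 in HCT116 (SE 0.145, adjusted p = 1.1e-07) and 1.04 in the mixed cultures (SE 0.184, adjusted p = 7.5e-05) on the log2 scale. Without MCF10A IR replicate 2, the change in MCF10A was 0.38 and was not called.

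H2AC20 was lower in IR in all 3 cultures. Its means were 0.971 ± 0.823 and 0.248 ± 0.290 CPM in MCF10A (a log2 change of -2.03, SE 0.666, adjusted p = 0.0112). In HCT116, H2AC20 fell from 0.862 ± 0.366 to 0.118 ± 0.117 CPM (a log2 change of -2.96, SE 0.758, adjusted p = 0.00215). In the mixed cultures, H2AC20 fell from 0.923 ± 0.439 to 0.231 ± 0.0616 CPM (a log2 change of -2.02, SE 0.538, adjusted p = 0.00366). The NIR and IR libraries overlapped in MCF10A and not in the other cultures. The MCF10A call was lost without MCF10A NIR replicate 2 (-1.04), IR replicate 1 (-1.61) or IR replicate 3 (-1.59), and the call in the mixed cultures without mixed NIR replicate 3 (-1.59). H2AC20 and H2BC21 start 234 bases apart on opposite strands, and H2BC21 rose in all 3 cultures.

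Other H2A genes stayed under 1 CPM in every group mean. H2AC13 was at 0.152 ± 0.172 CPM in MCF10A NIR and 0.533 ± 0.355 CPM in MCF10A IR (a log2 change of 1.73, SE 0.725, adjusted p = 0.0445), a call lost without MCF10A IR replicate 2 (1.94), NIR replicate 1 (1.56) or NIR replicate 3 (1.20). H2AC15 was at 0.152 ± 0.0563 CPM in HCT116 NIR and 0.498 ± 0.0686 CPM in HCT116 IR (a log2 change of 1.72, SE 0.648, adjusted p = 0.0296). That call was lost without HCT116 IR replicate 1 (1.81), 2 (1.61) or 3 (1.71) and without NIR replicate 1 (1.54) or 2 (1.59). H2AC11, at 0.276 to 0.688 CPM over the 6 group means, was called in no comparison. H2AC8 had counts in MCF10A only, at 0.413 ± 0.116 CPM in NIR and 0.355 ± 0.210 CPM in IR.

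The remaining H2A genes were not tested. The highest value in any library was 0.362 CPM for H2AC14, 0.311 CPM for H2AC12 and 0.225 CPM for H2AC21. It was 0.124 CPM for H2AC4 and 0.122 CPM for H2AC17. H2AC19, H2AC16, H2AC18 and H2AC7 reached 0.0735, 0.0588, 0.0588 and 0.0556 CPM, and H2AC1 had no count.

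H2B, the partner of H2A in the nucleosome, had the most members. H2BC5 was at 1.38, 1.63 and 0.956 CPM in MCF10A NIR and at 6.61, 5.62 and 5.47 CPM in MCF10A IR. In HCT116, H2BC5 was at 3.82, 3.20 and 2.93 CPM and then at 21.02, 18.3 and 22.5 CPM. The mixed cultures had 4.01, 1.90 and 2.56 CPM of H2BC5 and then 14.9, 12.0 and 12.6 CPM. Every HCT116 library was above every MCF10A library of the same treatment, and every IR library above the NIR libraries of its culture. H2BC5 rose by log2 fold changes of 2.12 in MCF10A (SE 0.230, adjusted p = 7.4e-09), 2.63 in HCT116 (SE 0.140, adjusted p = 3.0e-13) and 2.22 in the mixed cultures (SE 0.194, adjusted p = 5.1e-09).

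H2BC12, whose promoter is printed above, was at 9.12, 7.58 and 9.09 CPM in MCF10A NIR and at 26.5, 21.8 and 24.0 CPM in MCF10A IR. In HCT116, H2BC12 was at 2.69, 3.95 and 4.49 CPM and then at 22.5, 18.6 and 21.5 CPM. In mixed cultures there were 4.19, 3.92 and 4.81 CPM of H2BC12 and then 15.7, 15.7 and 14.8 CPM. The lines were apart without irradiation and overlapped after it. H2BC12 rose by log2 fold changes of 1.47 in MCF10A (SE 0.109, adjusted p = 3.7e-12), 2.51 in HCT116 (SE 0.156, adjusted p = 4.5e-12) and 1.81 in the mixed cultures (SE 0.132, adjusted p = 2.9e-10).

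H2BC21, the chromosome 1 gene with a model that runs far past its stem-loop, was at 2.71, 3.10 and 1.61 CPM in MCF10A NIR and at 8.41, 6.17 and 7.29 CPM in MCF10A IR. In HCT116, H2BC21 was at 1.39, 1.87 and 0.869 CPM and then at 7.98, 6.07 and 6.92 CPM. Mixed cultures showed 0.716, 0.577 and 1.84 CPM of H2BC21 and then 4.25, 2.35 and 2.93 CPM. No IR library overlapped with the NIR libraries of its culture, and irradiated mixed cultures were below both irradiated lines. H2BC21 rose by log2 fold changes of 1.52 in MCF10A (SE 0.207, adjusted p = 3.8e-07), 2.34 in HCT116 (SE 0.238, adjusted p = 1.8e-08) and 1.56 in the mixed cultures (SE 0.359, adjusted p = 0.00105).

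H2BC15 rose in every culture, from 0.662 ± 0.110 to 2.55 ± 0.815 CPM in MCF10A, from 1.61 ± 0.116 to 4.34 ± 0.712 CPM in HCT116 and from 1.70 ± 0.566 to 4.27 ± 0.911 CPM in the mixed cultures. Its log2 fold changes were 1.91 (SE 0.347, adjusted p = 3.1e-05), 1.42 (SE 0.238, adjusted p = 2.4e-05) and 1.32 (SE 0.257, adjusted p = 2.1e-04). H2BC4 rose from 0.617 ± 0.148 to 1.80 ± 0.102 CPM in MCF10A (a log2 change of 1.52, SE 0.376, adjusted p = 0.00104), where the groups were apart. In HCT116, H2BC4 libraries overlapped and the log2 fold change was 1.27 (SE 0.520, adjusted p = 0.0444), a call lost without HCT116 IR replicate 1 (1.22) or 3 (1.09) and without NIR replicate 1 (0.91) or 3 (1.06). In the mixed cultures, H2BC4 was at 0.456 ± 0.121 and 0.535 ± 0.151 CPM and was not called (adjusted p = 0.785).

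H2BC26 rose from 0.421 ± 0.257 to 1.11 ± 0.420 CPM in MCF10A (a log2 change of 1.40, SE 0.508, adjusted p = 0.021), which was lost without MCF10A IR replicate 3 (1.05), NIR replicate 1 (1.39) or NIR replicate 2 (1.02). H2BC26 was called in neither HCT116 (0.51, adjusted p = 0.35) nor the mixed cultures (-0.39, adjusted p = 0.494). H2BC18 was at 0.288 ± 0.125 and 0.801 ± 0.0642 CPM in HCT116 (a log2 change of 1.45, SE 0.544, adjusted p = 0.0283). Of the 6 fits that left out 1 library, only the fit without HCT116 NIR replicate 2 kept that call, and the values of the others lay between 1.16 and 1.59. H2BC6 was at 0.534 ± 0.124 and 1.11 ± 0.474 CPM in HCT116 and did not pass (1.07, SE 0.476, adjusted p = 0.0629), although its libraries did not overlap.

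H2BC8 and H2BC9 belonged almost wholly to MCF10A. H2BC8 had 17 counts over the 3 MCF10A NIR libraries and 63 over the IR libraries (a log2 change of 2.00, SE 0.694, adjusted p = 0.016), 1 count in HCT116 IR, and none in the other groups. Without MCF10A IR replicate 1 or NIR replicate 2 the change was 1.51 or 1.40 and was not called. H2BC9 had 44 and 32 counts in MCF10A NIR and IR (-0.34, adjusted p = 0.638) and none elsewhere. Of the untested H2B genes, H2BC13, H2BC17 and H2BC10 reached 0.451, 0.290 and 0.235 CPM in a library. H2BC7, H2BC14 and H2BC3 reached 0.2205, 0.1865 and 0.0724 CPM, and H2BC1 had no count.

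H3 carries many of the modified tail residues of chromatin. H3C6 was at 1.000, 0.563 and 0.683 CPM in MCF10A NIR and at 3.97, 2.96 and 3.53 CPM in MCF10A IR. In HCT116, H3C6 was at 1.33, 1.71 and 1.30 CPM and then at 7.04, 5.93 and 5.36 CPM. Among mixed libraries there were 1.29, 2.54 and 0.778 CPM of H3C6 and then 4.73, 4.06 and 4.53 CPM. All IR libraries were above the NIR libraries of their culture. H3C6 rose by log2 fold changes of 2.19 in MCF10A (SE 0.304, adjusted p = 5.5e-07), 2.08 in HCT116 (SE 0.222, adjusted p = 3.6e-08) and 1.5 in the mixed cultures (SE 0.298, adjusted p = 2.5e-04).

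H3C10 was called in HCT116 and in the mixed cultures. In MCF10A, H3C10 was at 0.744 ± 0.332 and 1.31 ± 0.561 CPM, with overlap (a log2 change of 0.79, SE 0.431, adjusted p = 0.124). In HCT116, H3C10 was at 0.347, 0.497 and 0.507 CPM and then at 4.33, 3.67 and 4.39 CPM (a log2 change of 3.20, SE 0.308, adjusted p = 7.0e-09). The mixed cultures had 0.573, 0.404 and 0.445 CPM of H3C10 and then 2.38, 2.33 and 2.21 CPM (a log2 change of 2.26, SE 0.341, adjusted p = 1.1e-05). Every other H3 gene was too low to test. The highest values were 0.722 CPM for H3C13, 0.397 CPM for H3C1, 0.3885 CPM for H3C2 and 0.376 CPM for H3C3. H3C12, H3C8 and H3C11 reached 0.250, 0.235 and 0.235 CPM, and H3C7 and H3C4 reached 0.118 and 0.0535 CPM. H3C14 and H3C15 share an identical model and had no count, and reads of such a pair can be dropped in counting.

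H4 joins H3 in the tetramer at the centre of the nucleosome. H4C8 rose from 0.419 ± 0.0726 to 2.69 ± 0.453 CPM in MCF10A (a log2 change of 2.66, SE 0.358, adjusted p = 3.4e-07), and no libraries overlapped. It was below the filter in HCT116, with 0.0793 ± 0.0734 and 0.664 ± 0.311 CPM, and in the mixed cultures. H4C16, the member on chromosome 12, rose from 0.399 ± 0.350 to 1.31 ± 0.465 CPM in HCT116 (a log2 change of 1.75, SE 0.573, adjusted p = 0.013) and from 0.167 ± 0.0724 to 0.808 ± 0.328 CPM in the mixed cultures (a log2 change of 2.25, SE 0.580, adjusted p = 0.0028). The HCT116 call was lost without HCT116 IR replicate 2 (1.48) or NIR replicate 2 (1.24). In MCF10A, H4C16 was at 0.642 ± 0.391 and 1.17 ± 0.476 CPM and was not called (0.82, adjusted p = 0.152).

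H4C14 was at 0.139 ± 0.141 and 0.846 ± 0.554 CPM in MCF10A (a log2 change of 2.51, SE 0.705, adjusted p = 0.00341) and lost its call without MCF10A IR replicate 1 (1.86). It shares an identical model with H4C15, which reached 0.0490 CPM, so their counts are uncertain. H4C12 was at 0.196 ± 0.191 and 0.655 ± 0.453 CPM in MCF10A (a log2 change of 1.70, SE 0.714, adjusted p = 0.0449), a call lost without IR replicate 1 (0.99) or 2 (1.91) and without NIR replicate 2 (1.11) or 3 (1.74). H4C5, at 0.170 to 0.494 CPM over the group means, had no called response. The highest values of the untested H4 genes were 0.544 CPM for H4C3, 0.427 CPM for H4C9 and 0.311 CPM for H4C4. H4C11 and H4C1 reached 0.221 and 0.215 CPM. H4C13, H4C2 and H4C6 reached 0.0724, 0.0577 and 0.0305 CPM, and H4C7 had no count.

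H2BC11 stood apart from every other member. It was at 242.4, 245.6 and 269.3 CPM in MCF10A NIR and at 260.4, 268 and 299.5 CPM in MCF10A IR. In HCT116, H2BC11 was at 0.174, 0.124 and 0.652 CPM and then at 1.71, 1.54 and 1.09 CPM, from 28 and 147 counts over 3 libraries. The mixed cultures had 42.4, 40.7 and 35.0 CPM of H2BC11 without irradiation and 30.3, 31.1 and 31.4 CPM after it. The MCF10A groups overlapped, the HCT116 groups did not, and the irradiated mixed cultures were below the non-irradiated ones.

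With irradiation H2BC11 rose in HCT116 (a log2 change of 2.24, SE 0.547, adjusted p = 0.00145) and fell in the mixed cultures (-0.37, SE 0.0815, adjusted p = 6.9e-04). In MCF10A its log2 fold change was 0.11 (SE 0.0499, adjusted p = 0.0685). That result passed without MCF10A NIR replicate 3 (0.15) or IR replicate 1 (0.15), with RLE (0.12) or upper-quartile factors (0.19), with halved counts (0.12) and with the replicate block (0.11). HCT116 NIR replicate 3 held most of the H2BC11 counts of its group, and without it the change in HCT116 was 3.26. Head to head with H2BC11, 246 bases away, H2AC11 had 0.361 ± 0.166 CPM in MCF10A NIR and 0.480 ± 0.137 CPM in HCT116 NIR. MCF10A carried an H2B reporter and HCT116 did not, so RNA of the chromosomal H2BC11 gene and any reporter RNA counted under the same symbol cannot be told apart. Because the H2B gene of the reporter is not stated, the same limit holds for the other H2B genes and for the sums without H2BC11.

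The lines were compared within each treatment. Without irradiation 21 members passed the filter and 11 were called, 3 higher and 8 lower in HCT116, where 74.8% of all 16568 genes tested were called (38.7% higher, 36.1% lower). After irradiation 10 of 23 members were called, 4 higher and 6 lower, against 74.9% of 16932 genes (38.1% higher, 36.8% lower). The scaling of libraries matters here: with upper-quartile factors the median of all genes moved from 0.049 to 0.25 without irradiation and from 0.037 to 0.22 after it. The calls were then 5 higher and 7 lower, and 5 higher and 5 lower.

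H2BC11 differed most, at a log2 fold change of -9.91 in HCT116 against MCF10A without irradiation (SE 0.163, adjusted p = 7.5e-19) and -7.77 after it (SE 0.0970, adjusted p = 1.1e-28). Without HCT116 NIR replicate 3 the former was -10.89. H2BC12 was lower in HCT116 NIR by -1.42 (SE 0.197, adjusted p = 4.0e-06) and in HCT116 IR by -0.44 (SE 0.1002, adjusted p = 3.6e-04). H2BC5 was higher in HCT116, by 1.12 without irradiation (SE 0.287, adjusted p = 0.00197) and 1.57 after it (SE 0.128, adjusted p = 2.6e-11). H4C8 was lower in HCT116 by -2.60 (SE 0.741, adjusted p = 0.00423) and -2.24 (SE 0.375, adjusted p = 7.1e-06).

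Of the remaining members that were called, H2BC6 was called in both treatments and the others in 1. Without irradiation H2AC25 (-0.64, SE 0.172, adjusted p = 0.00284), H2AC6 (-0.63, SE 0.197, adjusted p = 0.00761), H2BC21 (-1.04, SE 0.345, adjusted p = 0.0113) and H4C5 (-1.55, SE 0.576, adjusted p = 0.0221) were lower in HCT116. H2BC15 was higher (1.08, SE 0.372, adjusted p = 0.0144). H2BC21 lost its call without MCF10A NIR replicate 2 (-0.86), and H4C5 lost its call without MCF10A NIR replicate 1 (-1.61) or 3 (-1.39) or HCT116 NIR replicate 1 (-1.32) or 3 (-1.47), and with DESeq2 (-1.58) or no filter (-1.57). H2AC6 lost its call with upper-quartile factors (-0.43). H2BC6 was higher in HCT116 by 1.58 without irradiation (SE 0.603, adjusted p = 0.025) and by 2.23 after it (SE 0.568, adjusted p = 0.00102). Its first call was lost without MCF10A NIR replicate 2 (1.16) or 3 (1.64) or HCT116 NIR replicate 2 (1.41) or 3 (1.55), and with DESeq2 (1.60) or no filter (1.56).

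H2AC8 had no count in HCT116 NIR, which allows up to 0.0318 CPM (3 counts over the 3 libraries, for counting error only). It was therefore at least 13-fold lower there than in MCF10A NIR (adjusted p = 6.0e-05), or at least 6.49-fold if each fragment gave 2 counts. After irradiation H3C10 (1.40, SE 0.286, adjusted p = 9.4e-05) and H3C6 (0.58, SE 0.194, adjusted p = 0.0089) were higher in HCT116. H4C14 (-1.91, SE 0.582, adjusted p = 0.00469) and H2BC4 (-0.82, SE 0.348, adjusted p = 0.0364) were lower, as was H2BC8, with 1 count in HCT116 IR and 63 in MCF10A IR (adjusted p = 4.6e-06). H3C6 lost its call without HCT116 IR replicate 1 (0.47), and H4C14 without MCF10A IR replicate 1 (-1.29) and with 1 fit over all libraries (-1.86). Of the fits that left out 1 library, H2BC4 kept its call only without HCT116 IR replicate 3, and the 5 others gave -0.88 to -0.60. It also lost its call with upper-quartile factors (-0.64), with DESeq2 (-0.83) and with 1 fit over all libraries (-0.74). H1-2 was called in neither comparison (0.32, SE 0.219, adjusted p = 0.194, and 0.0069, SE 0.118, adjusted p = 0.961), but passed in NIR without MCF10A NIR replicate 2 (0.57) and with upper-quartile factors (0.52).

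Whether HCT116 and MCF10A responded to irradiation to a different extent was tested with an interaction term. Of 27 members tested 6 were called, all with the larger log2 fold change in HCT116, against 37.3% of all 18179 genes (15.4% higher, 21.9% lower). H3C10 differed by 2.33 (SE 0.539, adjusted p = 0.00115), and H2BC11 by 2.12 (SE 0.342, adjusted p = 2.0e-05), or 3.10 without HCT116 NIR replicate 3. H2BC12 differed by 0.97 (SE 0.202, adjusted p = 4.3e-04), H2AC25 by 0.70 (SE 0.202, adjusted p = 0.0076) and H2AC6 by 0.58 (SE 0.182, adjusted p = 0.0134). Without MCF10A NIR replicate 1 the H2AC6 difference was 0.48 and was not called. H4C12 was also called (adjusted p = 0.0353), but it had no count in HCT116 NIR, so its fitted difference is no bound. That call was kept without MCF10A NIR replicate 2, MCF10A IR replicate 1 or HCT116 IR replicate 1 or 3 and lost without any other library, with fitted values of 4.27 to 5.26, and with 1 fit over all libraries (5.41).

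For the other members no difference in response was called. H2BC5 had an estimate of 0.44 (SE 0.257, adjusted p = 0.188), H2BC21 of 0.73 (SE 0.345, adjusted p = 0.1), H1-2 of -0.33 (SE 0.236, adjusted p = 0.305) and H3C6 of -0.18 (SE 0.366, adjusted p = 0.755). H2BC21 passed without HCT116 NIR replicate 2 (1.01) or MCF10A NIR replicate 3 (0.96), and H1-2 passed without MCF10A NIR replicate 2 (-0.59). H3C6 changed its sign without MCF10A IR replicate 1 (0.016).

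The mixed cultures were compared with HCT116 alone. Without irradiation 1 of 17 members tested was called, H2BC11, against 2.04% of 16455 genes (0.887% higher, 1.15% lower). H2BC11 was higher in the mixed cultures by a log2 fold change of 7.04 (SE 0.238, adjusted p = 6.9e-13), or 8.03 without HCT116 NIR replicate 3. After irradiation 8 of 22 members were called, 1 higher and 7 lower in the mixed cultures, against 8.56% of 17137 genes (5.08% higher, 3.48% lower). The gene called higher was again H2BC11 (4.38, SE 0.138, adjusted p = 6.1e-20).

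The 7 members called lower in the irradiated mixed cultures were of the H1, H2A, H2B and H3 families. H2BC21 was lower by -1.15 (SE 0.195, adjusted p = 1.6e-04), H2BC5 by -0.65 (SE 0.111, adjusted p = 1.6e-04), H2AC25 by -0.62 (SE 0.131, adjusted p = 0.00204) and H2AC6 by -0.58 (SE 0.0926, adjusted p = 6.2e-05). H3C10 (-0.85, SE 0.210, adjusted p = 0.0087), H1-2 (-0.45, SE 0.132, adjusted p = 0.0277) and H2BC12 (-0.44, SE 0.102, adjusted p = 0.00455) completed the 7. H3C6 (-0.47, SE 0.167, adjusted p = 0.0798) and H2BC15 (-0.025, SE 0.196, adjusted p = 0.967) were not called. H1-2 lost its call without HCT116 IR replicate 1 (-0.38) or 3 (-0.43) or mixed IR replicate 2 (-0.32) or 3 (-0.39), and with DESeq2 (-0.45). With 1 fit over all libraries neither H1-2 (-0.42) nor H3C10 (-0.82, adjusted p = 0.113) was called. For the difference in response between mixed cultures and HCT116, 1 of 23 members was called, H2BC11 (-2.66, SE 0.349, adjusted p = 1.4e-04), against 0.830% of 18072 genes (0.681% higher, 0.149% lower). Without HCT116 NIR replicate 3 it was -3.67, and H2BC12 was then called too (-0.87).

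H2BC11 in the mixed cultures was set beside genes that mark MCF10A. Each mixed level was taken as a percentage of the mean MCF10A level of the same treatment. H2BC11 in the mixed NIR libraries was at 16.8%, 16.1% and 13.8% of its MCF10A level, and in HCT116 NIR at 0.125%. The 10 basal markers in the mixed NIR libraries had a median of 0.765%, from 0.0251% for KRT5 to 29.2% for CAV1, which HCT116 also had at 29.4%. TP63 and TGFBI, without a count in HCT116 NIR, were at 0.810% ± 0.323 and 1.22% ± 0.133 (SD, n = 3). Every mixed NIR library had H2BC11 above both of these markers on that scale.

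After irradiation H2BC11 in the mixed cultures was at 11.0%, 11.3% and 11.4% of its MCF10A level, below the NIR values. The basal markers had a median of 1.73%, and TP63 was at 1.51% ± 0.317 and TGFBI at 3.75% ± 0.410. Summed over the 10 markers, the mixed cultures held 332 ± 18.3 CPM in NIR and 484 ± 22.5 CPM in IR. In MCF10A the sums were 10500 ± 502 and 12310 ± 157 CPM, and in HCT116 293.5 ± 51.5 and 396 ± 27.2 CPM. CAV1 made up most of the sums in the mixed cultures and in HCT116. In NIR they held CAV1 at 29.2% and 29.4% of an MCF10A mean of 971.8 CPM. In IR the values were 37.6% and 47.7% of 780.3 CPM. The sums therefore say little about the other markers in these cultures. The 10 intestinal markers summed to 690.9 ± 28.1 CPM in mixed NIR and 899.9 ± 147 CPM in HCT116 NIR. The part that the share of each line takes in the mixed histone values was not tested.

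**Figure D4:**
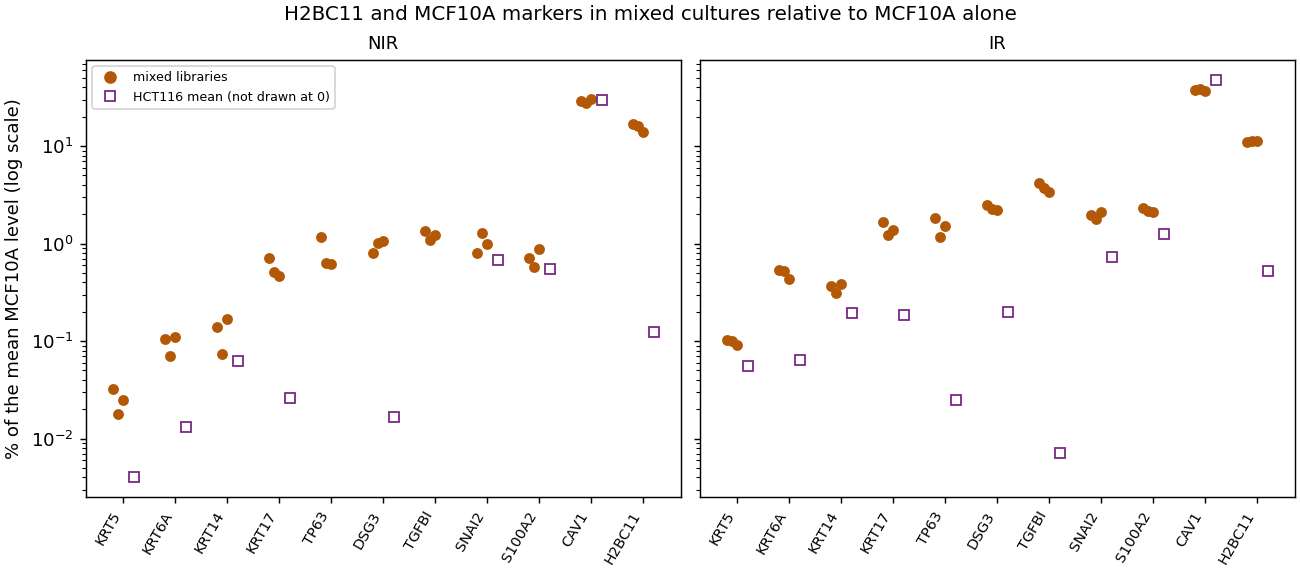
Level of 10 basal mammary marker genes and of H2BC11 (horizontal axes) in mixed cultures, as a percentage of the mean MCF10A level of the same treatment (vertical axis, log scale), in NIR (left) and IR (right). Orange circles are the 3 mixed libraries and open purple squares the HCT116 mean, which is not drawn at 0. H2BC11 lies at 13.8% to 16.8% in NIR, while TP63 and TGFBI have means of 0.810% and 1.22%.

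Genes that act on histone RNA or on DNA replication were counted in the same fits. Of 28 S phase and replication genes, 28 fell in MCF10A (median log2 fold change -1.20) and 27 in HCT116 (median -1.14). In MCF10A, GINS2 and MCM5 of the replicative helicase fell by 1.55 and 1.54. In HCT116 the clamp loader subunit RFC4, the helicase subunit MCM7 and the ribonucleotide reductase subunit RRM2 fell by 1.56, 1.44 and 1.42. The gene of HCT116 that was not called was PCNA, the sliding clamp, at 273.9 ± 10.0 and 272.4 ± 8.19 CPM (a log2 change of -2.4e-04, adjusted p = 0.997). In MCF10A, PCNA fell from 278.8 ± 7.86 to 148.1 ± 3.78 CPM (a log2 change of -0.93, SE 0.0434, adjusted p = 1.7e-16).

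The 21 genes of histone pre-mRNA 3′-end formation had 18 calls lower and none higher in MCF10A (median -0.44) and 11 lower and 3 higher in HCT116 (median -0.21). SLBP, the stem-loop binding protein, fell from 89.99 ± 4.31 to 64.6 ± 2.99 CPM in MCF10A (a log2 change of -0.50, SE 0.0561, adjusted p = 1.4e-08). In HCT116, SLBP fell from 146.7 ± 7.89 to 87.1 ± 2.68 CPM (a log2 change of -0.74, SE 0.0620, adjusted p = 6.7e-10). ERI1, an exonuclease that trims the histone RNA end, fell by 0.80 in MCF10A and by 1.07 in HCT116. LSM11 of the U7 particle fell by 0.80 in MCF10A, and SNRPB, a core small nuclear ribonucleoprotein, by 0.60 and 0.75.

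Of 14 genes of histone gene transcription, 11 were called lower and 1 higher in MCF10A (median -0.46), and 8 lower and 2 higher in HCT116 (median -0.55). NPAT, the coactivator of histone genes at S phase, fell from 40.4 ± 1.97 to 32.3 ± 0.911 CPM in MCF10A (a log2 change of -0.34, SE 0.0714, adjusted p = 1.7e-04). In HCT116, NPAT fell from 49.6 ± 2.25 to 35.3 ± 3.16 CPM (a log2 change of -0.48, SE 0.0816, adjusted p = 2.7e-05). Cyclin A2 (CCNA2) fell by 1.66 and 1.51, and E2F1 by 1.35 and 1.47, in MCF10A and HCT116. E2F2 fell by 1.87 in MCF10A, and CDK2 by 0.98 in HCT116.

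The 10 genes of histone RNA decay moved less: 4 were lower and 1 higher in MCF10A (median -0.067), and 4 lower and 2 higher in HCT116 (median -0.055). TUT7, a uridylyltransferase, rose by 0.63 in MCF10A, where the decapping enzyme DCP2 and the exosome nuclease EXOSC10 fell by 0.67 and 0.50. In HCT116 the checkpoint kinase ATR and the decay factor LSM1 rose by 0.49 and 0.43, and DCP2 fell by 0.47. Among 21 histone chaperone and import genes, 17 were lower and none higher in MCF10A (median -0.56), and 15 lower and 1 higher in HCT116 (median -0.48). NASP, CHAF1B and CHAF1A fell by 1.52, 1.37 and 1.14 in MCF10A, and ASF1B, CHAF1A and SSRP1 by 1.67, 1.40 and 1.13 in HCT116.

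Histone variants, whose genes lie outside the clusters and give polyadenylated RNA, were mostly lower in IR where they were tested. The list of 15 also held H2AW, H2BU1 and H4-16, other names of the members H2AC25, H2BC26 and H4C16. As members, H2AC25 was called higher in both lines, H2BC26 in MCF10A and H4C16 in HCT116. Those other names were not among the gene symbols, so these genes are not counted below. In each line 11 of the 15 on the list were tested. In MCF10A 9 were lower and none higher (median -0.70), and the same counts held in HCT116 (median -0.93). H2AZ1, the main H2A.Z gene, fell from 377.5 ± 26.3 to 151.7 ± 3.29 CPM in MCF10A (a log2 change of -1.34, SE 0.0486, adjusted p = 7.7e-19). In HCT116, H2AZ1 fell from 341.1 ± 14.9 to 121.8 ± 1.91 CPM (a log2 change of -1.48, SE 0.0579, adjusted p = 1.7e-15). The centromeric variant CENPA fell by 1.45 and 1.48, H2AZ2 by 0.84 in MCF10A and the linker variant H1-10 by 2.28 in HCT116.

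**Figure D5:**
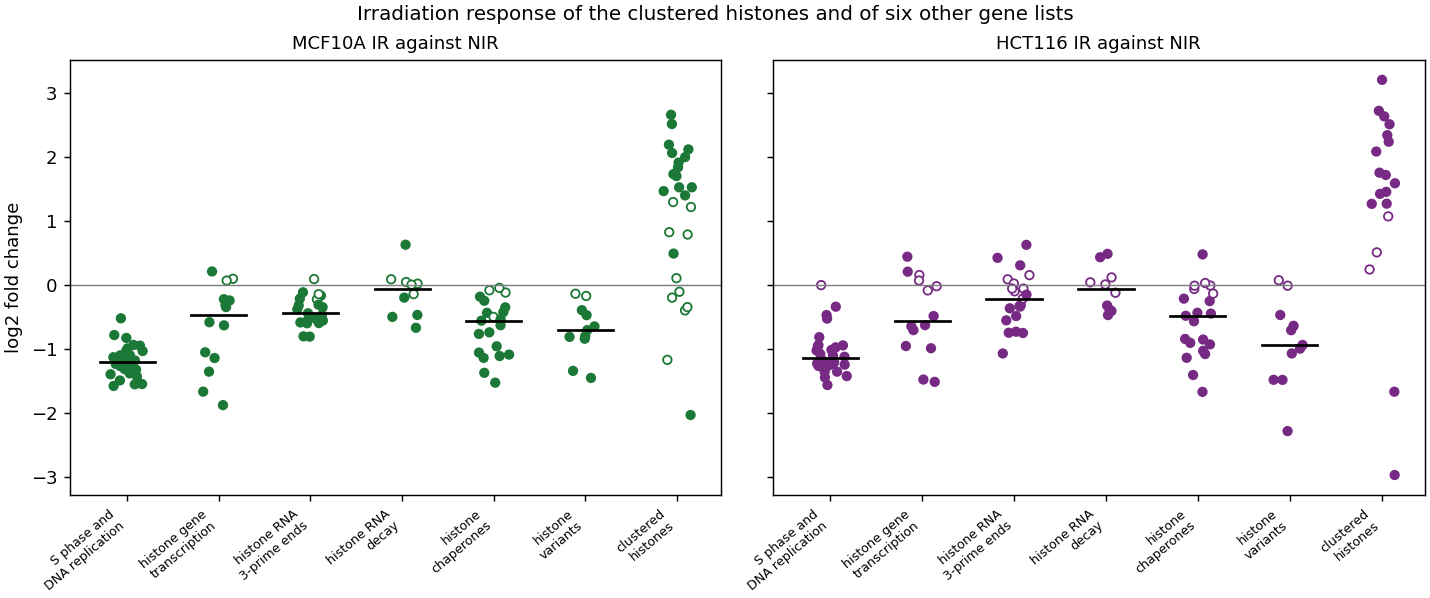
Log2 fold change of IR against NIR (vertical axis) for the tested genes of 6 background lists and for the clustered histones that passed the count filter (horizontal axis), in MCF10A (left) and HCT116 (right). Each point is a gene, filled where the adjusted p is under 0.05, and black lines are the medians of the background lists. The S phase genes have medians of -1.20 and -1.14, while the called clustered histones lie above 0 except H2AC20 in both lines and H1-4 in HCT116.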

How the data were processed

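Each library came as 1 deposited table of read counts by gene symbol, not normalized. Per the submitters' processing notes, fastp, STAR, featureCounts and GRCh38 were used. Versions, annotation and strand setting are not given in the sources used here, so reads of overlapping genes on opposite strands cannot be told apart. No counts of other samples were present.

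The 69 members and the background lists were chosen with earlier results of these data known. Counts were tested with edgeR 4.0.16 (R 4.3.3): TMM factors, filterByExpr by group, quasi-likelihood test, 2-sided, on the groups compared only, with Benjamini-Hochberg adjustment over all genes tested. Standard errors (SE) come from the fold change and its F statistic. CPM is counts times 1e+06 over the library total, without TMM factors, and mean ± SD is over 3 libraries. The test was checked on simulated data. Alternatives were RLE and upper-quartile factors, no filter, DESeq2 1.42.0, halved counts, leaving out mitochondrial and the 10 most abundant genes, 1 fit over all libraries, a replicate block and leaving out each library.

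Members with a group mean of at least 5 CPM are given by library, tested members below that by group, and others by their highest CPM. Of each background list the 3 called genes with the largest change per line are named, plus SLBP, NPAT, PCNA and H2AZ1. A gene that this rule names and a genotype detail of a line are not reported here. Same-numbered libraries were not taken as pairs.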

Additional observations from a re-analysis of the deposited data

Results flagged for a closer look

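7 results were singled out because the irradiation response of a gene differed between cultures in a test of the difference itself (edgeR's quasi-likelihood interaction test, Benjamini-Hochberg adjusted over all genes). Against MCF10A, the response of HCT116 was larger on the log2 scale by 2.33 for H3C10, 2.12 for H2BC11, 0.97 for H2BC12, 0.70 for H2AC25 and 0.58 for H2AC6. H4C12 had a fitted difference of 5.25 that rests on 0 counts in HCT116 NIR, so its size carries no meaning beyond its direction. Of 12 fits without 1 library, 8 no longer called it. For H2BC11 the response of the mixed cultures was smaller than that of HCT116, at -2.66. H2BC11 had 28 counts over the 3 HCT116 NIR libraries, most of them in replicate 3. The share of all genes with a called difference was 37.3% between the lines and 0.830% between mixed cultures and HCT116.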

How the results depend on the processing

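Counts of called members stayed within 1.5 times the reported count in all fits, with 3 exceptions. Counted only over members with at least 1 CPM in NIR, 6 were called in MCF10A and 8 in HCT116, because fewer genes enter. Without HCT116 NIR replicate 3, 2 members had a called difference in response between mixed cultures and HCT116, where leaving out any 1 library gave 1 to 2. With 1 library left out, calls with irradiation numbered 13 to 15 in MCF10A, 13 to 17 in HCT116 and 13 to 15 in the mixed cultures. Calls kept in every fit were 9 of 16, 11 of 16 and 12 of 13 in these comparisons, and all calls lost except that of H2AC25 were of members under 5 CPM.

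Some uncalled differences changed sign, and the cause was not tested. HCT116 against MCF10A after irradiation was -4.5e-05 for H1-2 with DESeq2 (-0.095 to 0.098 without 1 library), and 0.14 and 0.030 for H2AC6 with upper-quartile factors and with 1 fit over all libraries. Without 1 library, H3C6 in mixed cultures against HCT116 in NIR was -0.49 to 0.43 and H2AC6 -0.14 to 0.11. The H3C6 response difference was -0.45 to 0.016 between the lines and -0.93 to 0.0063 between mixed cultures and HCT116.

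Replicate numbers showed no pairing: of 45 same-numbered pairs of libraries, 1 had a residual correlation over 0.1. With the replicate block, 16, 15 and 13 members were called with irradiation, 8 and 9 between the lines in NIR and IR, and H3C6 in mixed cultures against HCT116 in NIR was -0.011. Between the lines H2BC15 (1.09), H2BC6 (1.62) and H4C5 (-1.57) then missed the threshold in NIR and H2BC4 (-0.83) in IR. With irradiation H2AC13 missed it in MCF10A and H2AC15 in HCT116, and H2BC11 passed it in MCF10A (0.11). Of the calls with irradiation, DESeq2 did not make those of H2AC13 and H4C12 in MCF10A and of H2AC15, H2BC18 and H2BC4 in HCT116. H2AC13 and H2AC15 also missed with no filter, and H2AC13, H2BC8, H4C12 and H2AC15 with 1 fit over all libraries. Below 1 CPM a library holds few counts of a gene, which limits what can be called.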

Other observations

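The head-to-head pairs of H2BC4 and H2AC6, H2AC25 and H2BC26, and H2AC15 and H2BC15 were chosen after their values were seen. In each pair both genes were called higher with irradiation in some cultures and 1 gene in others. H2BC4 and H2AC6 start 244 bases apart. Both were called higher in MCF10A (2.06 for H2AC6 and 1.52 for H2BC4) and in HCT116 (2.72 and 1.27). The H2BC4 call in HCT116 was lost in 4 of 6 fits without 1 library and with DESeq2. In the mixed cultures H2AC6 had a log2 fold change of 2.17 (adjusted p = 5.9e-12) and H2BC4 of 0.19 (adjusted p = 0.785). H2AC25 and H2BC26 start 228 bases apart. Both were called higher in MCF10A (0.49 and 1.40). Of 6 fits without 1 library, the H2AC25 call was lost in 1 and the H2BC26 call in 3. In HCT116, H2AC25 had 1.27 (adjusted p = 1.1e-07) and H2BC26 0.51 (adjusted p = 0.35), and in the mixed cultures they had 1.04 (adjusted p = 7.5e-05) and -0.39 (adjusted p = 0.494). H2AC15 and H2BC15 start 192 bases apart. Both were called higher in HCT116 (1.72 and 1.42), where the H2AC15 call was lost in 5 of 6 fits without 1 library. In MCF10A, H2BC15 had 1.91 (adjusted p = 3.1e-05) and H2AC15 1.295 (adjusted p = 0.142). In the mixed cultures H2BC15 had 1.32 (adjusted p = 2.1e-04) and H2AC15 was below the filter. The difference between the genes of a pair was not tested.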
